A study of Homo sapiens with 12 samples.

Results

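The question was whether 2 cancer cell lines, RKO and H460, answered the same oxygen shortage with the same transcripts. The data were 8 of the 12 poly(A)+ RNA-seq libraries of the series: those of RKO, a colon carcinoma line, and of H460, a lung carcinoma line, each in normoxia and in hypoxia (1% O2 for 24 h), with 2 biological replicates per group described as independent. The other 4 libraries were of A549 cells and entered no comparison between RKO and H460, except in an alternative fit of all 12 libraries. RKO cells grew in DMEM and H460 cells in RPMI, both with serum and antibiotic-antimycotic and plated the day before, so that line, tissue of origin and medium cannot be told apart. The labels name no genetic modification of either line, and each line stands for 1 tumour. The measure throughout was the interaction of line and oxygen: the log2 fold change (hypoxia against normoxia) in RKO minus that in H460, so that a positive difference means a change further up, or less far down, in RKO.

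Cells sense oxygen through prolyl hydroxylases of the EGLN family, which mark the alpha subunits of the hypoxia-inducible factors (HIFs) for destruction by VHL as long as oxygen is present. In hypoxia the alpha subunits HIF1A and EPAS1 (HIF2A) persist, pair with ARNT and bind a short DNA core, ACGTG or GCGTG, near genes for glycolysis, angiogenesis, pH control and matrix remodelling. Hypoxia also lowers ribosome production, DNA replication and mitochondrial respiration, and the KEAP1 and NRF2 system, which drives antioxidant and NADPH-producing enzymes, is a separate stress pathway.

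Counted reads ranged from 27350424 to 39076378 per library. The 10 most abundant genes took 4.22% to 5.78% of the reads, except in the H460 hypoxia libraries, where they took 7.79% and 7.23%. The TMM factors that correct for such composition were 0.792 and 0.834 there and between 1.03 and 1.13 in the other 6 libraries, so all changes are given relative to the trimmed mean of genes. Using library size alone lowered the median H460 change by 0.36 and raised the median difference by 0.38 (log2). Replicates varied more in RKO (biological coefficient of variation 15%) than in H460 (7.91%). Few markers of the tissue of origin were detected: in RKO 2 of 8 intestinal markers passed 0.5 CPM (reads of a gene scaled to the effective size of the library), CDX2 among them, and in H460 no more than 2 of 8 lung epithelial markers did, with a summed level of 0.601 to 4.35 CPM and SFTPA1 and SFTPB at 0 in all 4 libraries. NKX2-1, a lung lineage factor, was at 0.0707 and 0 CPM in H460 normoxia and at 3.64 and 3.38 in hypoxia. Of 5 epithelial markers, 4 passed in RKO and 3 or 4 in H460.

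The hypoxia response differed between the lines in 38.5% of the tested genes. Of 14782 genes tested, the interaction was called for 5693 (38.5%) at an adjusted p under 0.1 and a difference over 1.5-fold, 3350 with the RKO change above the H460 change (22.7%) and 2343 with it below (15.9%). In RKO 3041 genes rose (20.6%) and 1726 fell (11.7%), while in H460 3553 rose (24%) and 3828 fell (25.9%). Most genes called in both lines moved the same way: 2354 of 2822 (83.4%) did, and 468 moved in opposite directions. Of the opposite genes, 404 went up in RKO and down in H460, and 64 did the reverse. A further 3860 genes responded in one line only, by the strict sense that the interaction was called too: 811 rose and 288 fell in RKO alone, and 1284 rose and 1477 fell in H460 alone. Another 2644 genes were called in one line without a called interaction and are not counted as single-line responses. The division of the interaction calls leaned on the scaling, since 58.8% of them had the RKO change above the H460 change with TMM factors and 83.4% with library size alone, where 5308 were above and 1054 below. In bulk RNA, a change in the share of cells that carry a transcript and a change per cell cannot be told apart. The p values measure the spread between 2 replicates per group. The joint fit shares its estimate of that spread between the lines, although replicates varied more in RKO. With each line fitted on its own, 2415 genes rose and 1930 fell in RKO, and 3467 rose and 3837 fell in H460. With these calls, 283 genes were opposite with RKO higher and 60 with RKO lower.

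**Figure D1:**
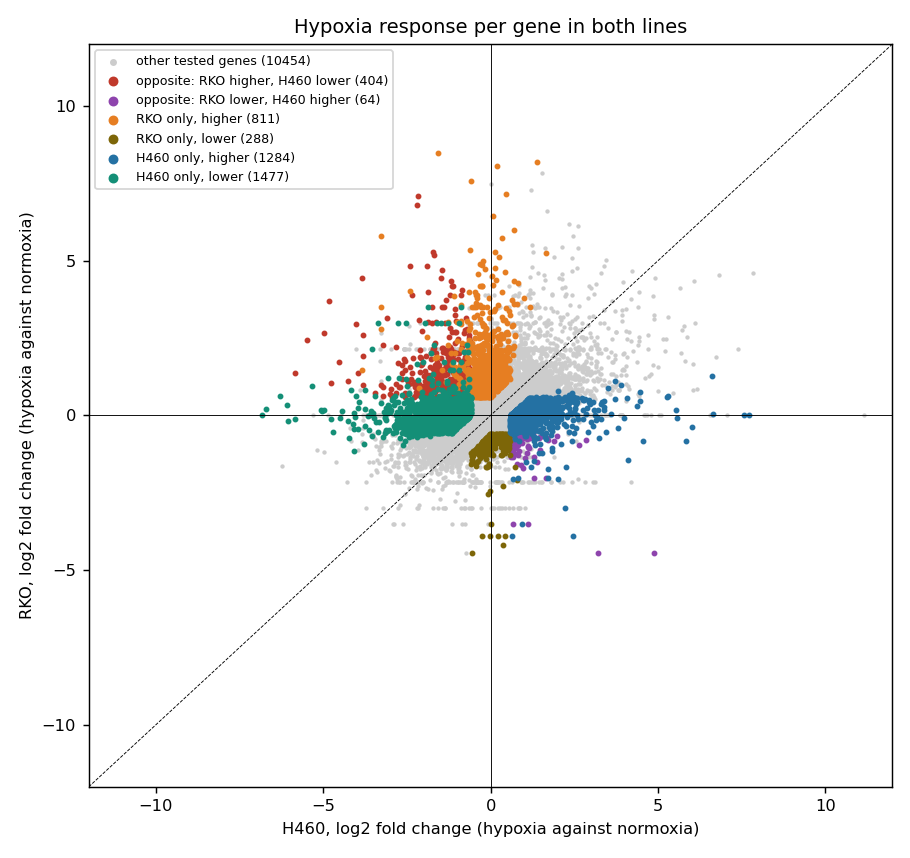
Log2 fold change of each of the 14782 tested genes in H460 (x axis) and RKO (y axis), coloured by class, with the number of genes in each class; the dashed line marks equal changes. The 404 genes that rose in RKO and fell in H460 fill the upper left, and the 64 reverse genes lie at the lower right.

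Many of these calls involved a line in which the gene was nearly silent. Of the 404 genes that rose in RKO and fell in H460, 327 passed the 0.5 CPM filter in both lines and 174 had a mean of at least 100 reads in both; of the 64 reverse genes these numbers were 51 and 43. At least 100 reads on average in both lines were found for 431 of 811 genes higher in RKO only, 260 of 288 lower in RKO only, 1111 of 1284 higher in H460 only and 1062 of 1477 lower in H460 only. Some genes named below had the largest differences of their class with at least 100 reads on average over the 8 libraries. Others were added after the values were seen, as the largest differences among genes with at least 100 reads on average in each line.

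Genes that went up in RKO and down in H460 included MGAT5B, RHBDL3 and the others described next. MGAT5B (chromosome 17, 74864798 to 74946471, GRCh37), a glycosyltransferase that branches O-mannosyl glycans, had 0.367 and 0.494 CPM in the RKO normoxia libraries and 8.85 and 8.99 in hypoxia, against 18.7 and 20.2 in H460 normoxia and 8.79 and 8.53 in hypoxia. It was low in RKO normoxia and high in H460 normoxia, with no overlap between conditions in either line, and the 4 hypoxia libraries lay between 8.53 and 8.99 CPM. Its log2 change was 4.36 ± 0.24 (SE, n = 2 per group) in RKO and -1.17 ± 0.18 in H460, a difference of 5.53 ± 0.30 (adjusted p = 2.18e-07, edgeR quasi-likelihood test with Benjamini-Hochberg adjustment, as for all adjusted p values here). RHBDL3, a rhomboid-like membrane protein, went from 7.2 and 7.96 to 14.9 and 17.6 CPM in RKO and from 5.62 and 6.17 to 0.209 and 0.38 in H460. The lines had similar levels in normoxia and parted in hypoxia, with a difference of 5.37 ± 0.37 (adjusted p = 1.42e-06).

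ITPR1, the inositol trisphosphate receptor that releases calcium from the endoplasmic reticulum, had 36.2 and 19.8 CPM in RKO normoxia and 325 and 204 in hypoxia, and 70.9 and 69.5 against 32 and 34.5 in H460. Its RKO replicates differed by more than its H460 replicates, but normoxia and hypoxia did not overlap in either line, and the difference was 4.32 ± 0.35 (adjusted p = 4.01e-06). AQP3, a water and glycerol channel, rose in RKO from 0.602 and 0.346 to 1.68 and 1.67 CPM and fell in H460 from 25 and 21 to 3.64 and 4.04, with a difference of 4.40 ± 0.37. LAT2, a membrane adaptor, rose in RKO from 1.44 and 1.31 to 8.1 and 5.76 CPM and fell in H460 from 24 and 22.1 to 8.41 and 6.36. The hypoxia levels of LAT2 overlapped between the lines while the normoxia levels did not. Those of MGAT5B in hypoxia were close between the lines without overlap. STRIP2 and MROH6 completed this set, with differences of 3.84 ± 0.27 and 4.26 ± 0.39, although the rise of STRIP2 in RKO (0.61 ± 0.17) was not called when RKO was fitted alone (0.55).

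The remaining genes named by size had almost no reads in one line. BEST3, a bestrophin channel, rose in RKO from 7.05 and 5.22 to 19 and 21.4 CPM, but in H460 it had 3 and 2 reads in normoxia and 0 in both hypoxia libraries, with a mean under a floor of 3 reads per library, so no fold is given. TMEM37 and TRPM2 fell in H460, from 12.8 and 13.1 to 2.51 and 3.35 CPM and from 10 and 10.6 to 6.53 and 4.97 CPM. In RKO their levels were at most 0.317 CPM in any library, and with RKO fitted on its own neither reached the filter.

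The reverse pattern, lower in RKO and higher in H460, was less frequent and included FAM13A and HSPA8. FAM13A, which carries a GTPase-activating domain, had 30.2 and 26.6 CPM in RKO normoxia and 15.9 and 16.7 in hypoxia, and 26.2 and 26.9 against 197 and 187 in H460. The normoxia levels of the lines were close, and the hypoxia libraries of H460 were far above those of RKO. The log2 change was -0.80 ± 0.12 in RKO and 2.85 ± 0.13 in H460 (difference -3.65 ± 0.17, adjusted p = 8.88e-08). HSPA8, the constitutive Hsc70 chaperone, went from 2291 and 2054 to 626 and 715 CPM in RKO and from 603 and 475 to 1078 and 1009 in H460. The lines thus exchanged order, RKO being higher in normoxia and lower in hypoxia, and the difference was -2.65 ± 0.22 (adjusted p = 4.09e-06).

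PRKAR1B, a regulatory subunit of protein kinase A, showed the same exchange of order, from 45.9 and 48.9 to 16.3 and 21.2 CPM in RKO and from 14.1 and 12.5 to 32.2 and 32.8 in H460 (difference -2.63 ± 0.22). RASA3, a GTPase-activating protein for Ras and Rap, went from 93.1 and 89.4 to 62.8 and 46.4 CPM in RKO and from 35.4 and 37.7 to 122 and 110 in H460. SOCS2, an inhibitor of cytokine signalling, fell in RKO from 10.8 and 12.5 to 5.22 and 5.47 CPM and rose in H460 from 11.6 and 14.6 to 32.5 and 40.7. HOMER1, a scaffold protein of synapses, fell in RKO from 24.7 and 20.4 to 13.7 and 12.1 CPM and rose in H460 from 6.89 and 7.3 to 27.6 and 19.3. Each of these 4 genes kept separate normoxia and hypoxia values within each line.

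Again the other genes of this class named by size were barely detected in one line. LPAR6, SLFN11, FAM127A and PPP1R3C rose in H460, by 1.13 ± 0.23, 1.29 ± 0.12, 1.37 ± 0.12 and 1.88 ± 0.12 on the log2 scale, but had at most 0.643 CPM in any RKO library. PPP1R3C, which targets a phosphatase to glycogen, was the most abundant of them, with 247 and 242 CPM in H460 normoxia and 920 and 880 in hypoxia. MT1E, a metallothionein, was the reverse case: it fell in RKO from 110 and 140 to 80.1 and 76.2 CPM and had at most 0.377 CPM in H460. With each line fitted on its own, all 5 genes were called in the abundant line alone. FAM127A, MT1E and HSPA8 have close copies in the genome, among which reads can be lost or shared.

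**Figure D2:**
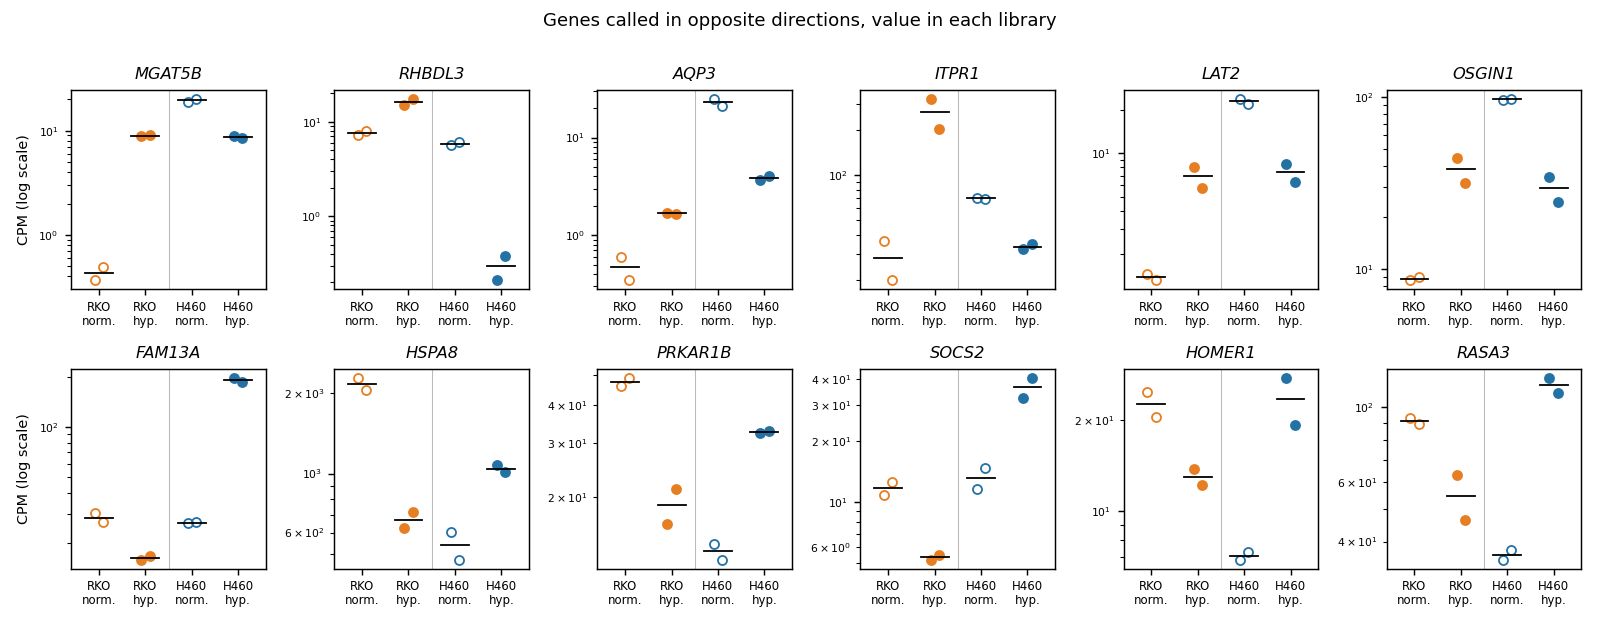
CPM on a log axis in each library for 12 genes called in opposite directions: RKO in orange, H460 in blue, normoxia open and hypoxia filled, with the mean of 2 replicates as a bar. The upper 6 genes went up in RKO and down in H460, and the lower 6 did the reverse; MGAT5B ended between 8.53 and 8.99 CPM in all 4 hypoxia libraries.

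Genes that rose in RKO alone included GJA1, SESN3 and EFR3B, which H460 held at higher levels in both conditions. GJA1, a gap junction connexin, had 0.236 and 0.0494 CPM in RKO normoxia and 5.51 and 2.25 in hypoxia, against 55.9 and 51.7 in H460 normoxia and 63.5 and 55.2 in hypoxia. Its RKO values stayed far below those of H460 in both conditions. The change was 4.76 ± 0.53 in RKO and 0.14 ± 0.27 in H460, a difference of 4.62 ± 0.62 (adjusted p = 0.000111). SESN3, a sestrin that restrains mTORC1, rose in RKO from 1.6 and 0.964 to 13.3 and 6.79 CPM and in H460 moved from 142 and 134 to 195 and 197 (0.50 ± 0.22, under the fold threshold). EFR3B, a membrane anchor of a phosphatidylinositol kinase, rose in RKO from 1.13 and 0.964 to 7.24 and 4.71 CPM and had 57.4, 50.7, 52.7 and 45.1 CPM in H460.

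MAP1A, a microtubule-associated protein, rose in RKO from 0.786 and 1.24 to 4.29 and 5.92 CPM. Its H460 change of -0.56 ± 0.19 was within the fold threshold with TMM factors and past it with library size alone (-0.92), which made it an opposite gene. LINC01021, a long noncoding RNA, and BTBD19 rose in RKO by 4.39 ± 0.43 and 3.16 ± 0.46, with H460 changes of 0.16 ± 0.31 and -0.04 ± 0.36. The RKO replicates of LINC01021 in hypoxia were unequal, at 3.85 and 9.09 CPM, both above the 0.262 and 0.346 CPM of normoxia. TMEM59L, CABP4, SLC9A3 and GYG2 were called as well, but had 0 reads in both RKO normoxia libraries. In RKO hypoxia TMEM59L had 33 and 8 reads and CABP4 had 2 and 6. Their mean hypoxia levels lay 6.66-fold and 1.36-fold above a floor of 3 reads per library in normoxia. Replicate 1 of CABP4 alone did not reach 3 reads, and SLC9A3 and GYG2 stayed at or under that floor.

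The transcripts that fell in RKO alone included the gene for the oxygen-regulated HIF subunit itself. HIF1A (chromosome 14, 62162119 to 62214977, GRCh37) had 156 and 144 CPM in RKO normoxia and 43.7 and 50 in hypoxia, against 332 and 317 in H460 normoxia and 327 and 266 in hypoxia. Both RKO hypoxia libraries were below all other libraries, and in H460 one hypoxia library fell inside the range of normoxia. The change was -1.68 ± 0.14 in RKO and -0.13 ± 0.13 in H460, a difference of -1.55 ± 0.19 (adjusted p = 5.88e-05). NPM1, the nucleolar protein nucleophosmin, fell in RKO from 2427 and 2002 to 1193 and 957 CPM, and in H460 it had 2178 and 2152 CPM in normoxia and 3251 and 2941 in hypoxia (0.52 ± 0.16, under the fold threshold). IER2, an immediate-early gene, fell in RKO from 103 and 99 to 39.5 and 57.4 CPM. In H460 it had 78.7 and 81.2 against 115 and 119 CPM (0.55 ± 0.15, under the fold threshold).

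BAG1, a cochaperone of Hsc70, had much the same pattern as IER2, with a change of -1.12 ± 0.16 in RKO and 0.51 ± 0.16 in H460. Its H460 rise was likewise under the fold threshold. DLEU1, a long noncoding RNA, fell in RKO from 9.38 and 10.8 to 2.61 and 3.81 CPM and changed by -0.09 ± 0.19 in H460. The 5 genes of this class with the largest fitted differences, SETBP1, TBC1D9, VASH1, ADAMTS1 and CES1, had at most 0.124 CPM in RKO normoxia and 0 reads in RKO hypoxia, with a mean level at or under the floor of 3 reads per library, so that they carry no measurable fall. On log2 RPKM the sign of the difference turned for TBC1D9, VASH1, ADAMTS1 and CES1.

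Genes that rose in H460 alone included a collagen-crosslinking enzyme, clock genes and an immediate-early gene. PPFIA4, which encodes a liprin scaffold protein, had 9.12 and 6.17 CPM in H460 normoxia and 777 and 734 in hypoxia, while the 4 RKO libraries lay between 0.288 and 0.742. Normoxia and hypoxia overlapped in RKO (0.03 ± 0.43) and were far apart in H460 (6.63 ± 0.24), a difference of -6.60 ± 0.55 (adjusted p = 4.08e-06). LOX, the enzyme that crosslinks collagen and elastin, had 1.05 and 1.11 CPM in RKO normoxia and 1.46 and 0.952 in hypoxia, against 0.46 and 0.409 and then 22 and 18.8 in H460. It was low in 6 of the 8 libraries and high in the H460 hypoxia libraries, with a difference of -5.38 ± 0.41 (adjusted p = 2.96e-06). AKAP12, a scaffold for protein kinases A and C, rose in H460 from 11.3 and 10.2 to 226 and 249 CPM, and in RKO went from 32.2 and 34 to 45.8 and 45.7 (0.47 ± 0.12, under the fold threshold).

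NR1D1, the clock repressor REV-ERB alpha, had 8.96, 10.1, 9.22 and 8.38 CPM in RKO and went from 12.7 and 8.09 to 114 and 87.3 in H460 (difference -3.40 ± 0.29). DBP, a clock output factor, rose in H460 by 3.39 ± 0.29 and changed by 0.46 ± 0.24 in RKO. FOSB, a member of the AP-1 family, stayed between 18.1 and 21.9 CPM in RKO and rose in H460 from 0.884 and 0.438 to 10.3 in both hypoxia libraries, still below RKO. HIST1H1C, a linker histone whose reads can be shared with its gene family, rose in H460 by 2.54 ± 0.16 and changed by -0.42 ± 0.15 in RKO. LINC00887, PTGS2 (cyclooxygenase-2) and MAF rose in H460 by 6.0 ± 0.31, 2.47 ± 0.22 and 4.54 ± 0.30, and had at most 0.0732 CPM in any RKO library, so their RKO change was not measurable at this depth. The interaction of MAF lost its call without RKO normoxia replicate 2 (-2.41) and in the fit of all 12 libraries (-5.38).

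Genes that fell in H460 alone included RPS6KL1, E2F1 and E2F2. RPS6KL1, a ribosomal S6 kinase-like gene, had 14.5 and 20.8 CPM in RKO normoxia, 18.3 and 26 in RKO hypoxia, and 19.6 and 24.2 in H460 normoxia, but 0.419 and 0.242 in H460 hypoxia. It was at a like level in 6 libraries and nearly lost in the H460 hypoxia libraries, with a difference of 6.40 ± 0.42 (adjusted p = 1.21e-06). E2F1, an activator of S-phase genes, had 72.2 and 83 CPM in H460 normoxia and 5.65 and 5.91 in hypoxia, against 44.3, 57.8, 59.2 and 58.3 in RKO. E2F2, its close relative, fell in H460 from 35.2 and 38.3 to 2.97 and 3.25 CPM and lay between 30.3 and 39.9 in RKO. The differences were 3.95 ± 0.21 for E2F1 (adjusted p = 2.18e-07) and 3.70 ± 0.23 for E2F2 (adjusted p = 7.07e-07).

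CCNE2, the S-phase cyclin E2, fell in H460 from 13.9 and 18.3 to 1.59 and 1.69 CPM and had 50.2, 51.8, 55.7 and 77.9 CPM in RKO. MFAP3L and the amino acid transporter gene SLC43A2 fell in H460 by 4.72 and 3.92 on the log2 scale, with RKO changes of -0.53 ± 0.23 and 0.44 ± 0.20. LOC388282 fell in H460 from 25.1 and 26 to 1.67 and 2.69 CPM but had 1 read in the 4 RKO libraries together, too few for an RKO change. VEPH1 and HGF, the ligand of the MET receptor, had at most 0.175 CPM in H460 normoxia and 0 reads in H460 hypoxia, with a mean level under the floor, so no fall is claimed. Their RKO levels of 6.47 to 8.17 CPM and 14.5 to 23.3 CPM overlapped between conditions.

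**Figure D3:**
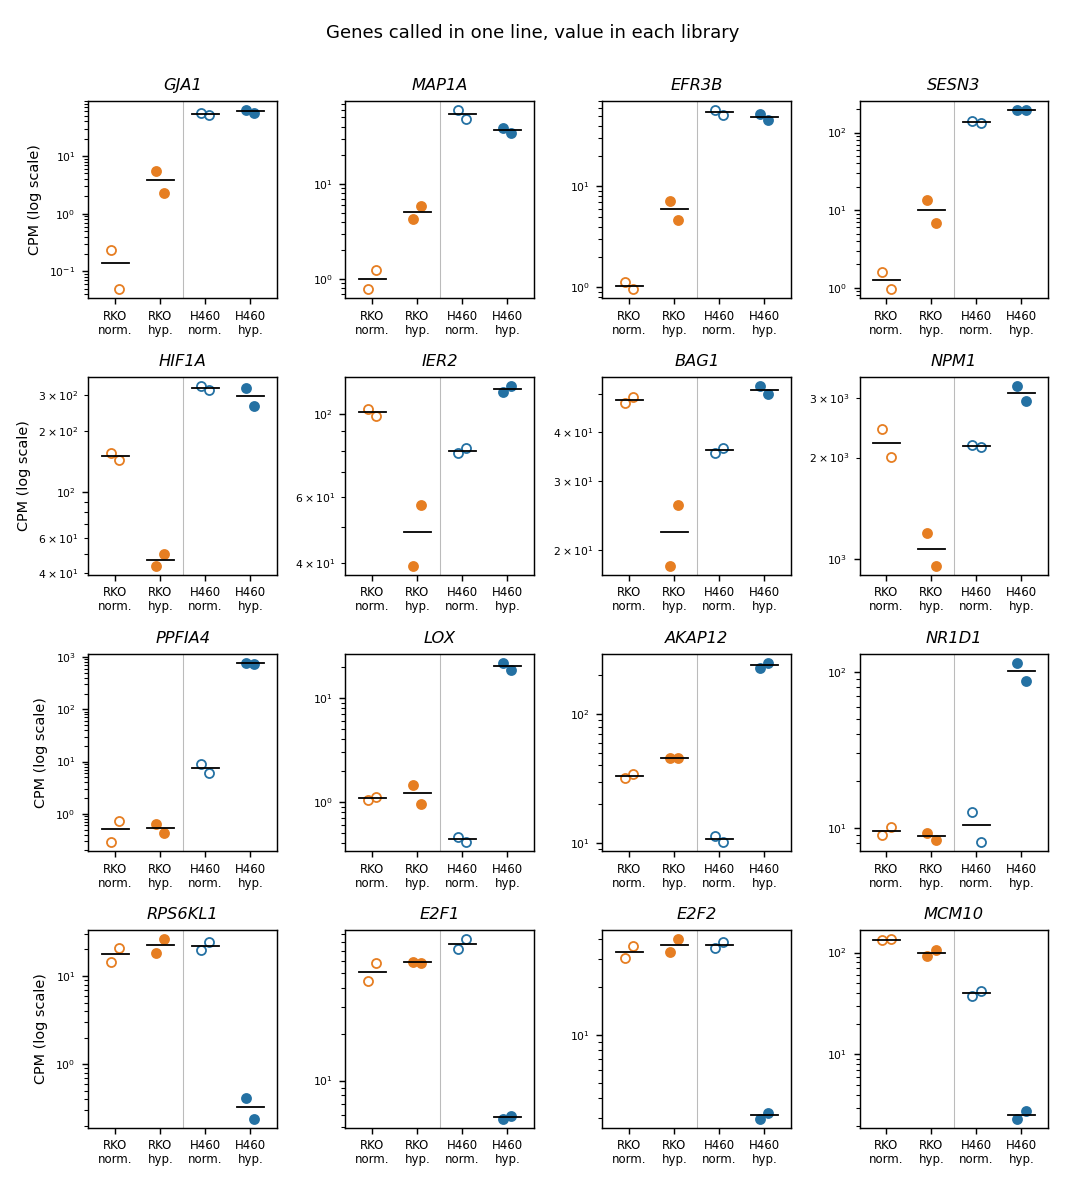
CPM on a log axis in each library for 16 genes called in one line: RKO in orange, H460 in blue, normoxia open and hypoxia filled, with the mean of 2 replicates as a bar. From top to bottom the rows hold genes higher in RKO only, lower in RKO only, higher in H460 only and lower in H460 only; RPS6KL1 lay between 14.5 and 26 CPM in 6 libraries and at 0.419 and 0.242 in H460 hypoxia.

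The promoters of 6 genes are shown, from classes in both directions, so that the sequence can be read beside the response. PPFIA4 and RPS6KL1 led their classes among genes with at least 100 reads on average over the 8 libraries. MGAT5B and FAM13A led theirs among genes with at least 100 reads on average in each line. BEST3 and LPAR6, which ranked above them over the 8 libraries, had almost no reads in one line and are not shown. PPFIA4 is shown although its RKO level was at most 0.742 CPM. OSGIN1 and HIF1A were added after their values were seen. The promoters shown include none from genes higher in RKO only. They span 250 bases before to 50 after the RefSeq start site on GRCh38.p14, 5′ to 3′ on the strand of the gene, and capitals mark ACGTG or GCGTG (the HIF core) and TGACNNNGC (the core of the antioxidant response element that NRF2 binds) on either strand. Matches on opposite strands can overlap, as in CACGTG.
MGAT5B: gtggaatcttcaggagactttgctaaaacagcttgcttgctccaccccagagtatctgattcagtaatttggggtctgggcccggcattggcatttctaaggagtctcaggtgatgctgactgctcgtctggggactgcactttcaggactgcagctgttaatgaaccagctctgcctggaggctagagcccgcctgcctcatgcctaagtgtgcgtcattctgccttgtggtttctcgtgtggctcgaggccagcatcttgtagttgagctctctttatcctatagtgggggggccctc
OSGIN1: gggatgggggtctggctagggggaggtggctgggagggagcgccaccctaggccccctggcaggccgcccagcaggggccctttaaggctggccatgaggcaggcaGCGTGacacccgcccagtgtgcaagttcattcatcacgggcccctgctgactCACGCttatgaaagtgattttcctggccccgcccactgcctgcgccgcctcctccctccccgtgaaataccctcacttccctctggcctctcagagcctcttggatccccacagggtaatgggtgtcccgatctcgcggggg
FAM13A: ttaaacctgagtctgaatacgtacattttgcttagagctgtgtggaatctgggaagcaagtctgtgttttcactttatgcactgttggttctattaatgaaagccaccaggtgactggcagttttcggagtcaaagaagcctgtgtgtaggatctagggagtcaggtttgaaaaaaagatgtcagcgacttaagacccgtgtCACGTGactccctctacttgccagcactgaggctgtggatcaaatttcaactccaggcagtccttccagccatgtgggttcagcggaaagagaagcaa
HIF1A: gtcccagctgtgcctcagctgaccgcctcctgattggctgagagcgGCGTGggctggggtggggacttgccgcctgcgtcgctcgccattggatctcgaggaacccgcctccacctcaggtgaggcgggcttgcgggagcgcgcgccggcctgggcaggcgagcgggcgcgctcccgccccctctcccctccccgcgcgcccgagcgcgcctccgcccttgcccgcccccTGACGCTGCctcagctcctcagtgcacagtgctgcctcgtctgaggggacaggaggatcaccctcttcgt
PPFIA4: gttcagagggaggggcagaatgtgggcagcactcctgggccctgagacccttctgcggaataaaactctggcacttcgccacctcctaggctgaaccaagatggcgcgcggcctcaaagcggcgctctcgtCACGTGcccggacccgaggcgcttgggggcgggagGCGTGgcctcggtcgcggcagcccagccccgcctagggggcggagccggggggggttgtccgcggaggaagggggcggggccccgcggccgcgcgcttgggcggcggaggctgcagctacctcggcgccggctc
RPS6KL1: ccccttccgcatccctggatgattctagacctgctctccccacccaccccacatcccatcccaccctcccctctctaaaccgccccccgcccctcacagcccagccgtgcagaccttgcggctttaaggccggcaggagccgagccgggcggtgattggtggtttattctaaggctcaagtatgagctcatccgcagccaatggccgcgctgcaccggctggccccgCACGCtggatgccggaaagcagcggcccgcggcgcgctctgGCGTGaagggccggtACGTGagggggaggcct

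MGAT5B (chr17:76872397-76872696, plus strand) held none of these letters, and OSGIN1 (chr16:83952990-83953289, plus strand) held the HIF core 2 times. FAM13A (chr4:89057136-89057435, minus strand) held 2 overlapping matches that form 1 palindrome. HIF1A (chr14:61695263-61695562, plus strand) held 1 HIF core and 1 antioxidant core. PPFIA4 (chr1:203026241-203026540, plus strand) and RPS6KL1 (chr14:74923211-74923510, minus strand), which rose and fell in H460, each held 3 matches of the HIF core. Of the 11424 tested genes with a promoter in the RefSeq table, 62.6% held the HIF core and 15% the antioxidant core, so a match is common. Promoters were at hand for 77.3% of tested genes, under the 80% set for such a check, so a comparison of motif shares between classes is void and none is given.

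The HIF system itself was the first gene group compared, and its targets answered in both lines but further in H460. Of 42 tested classic HIF target genes, 34 rose in RKO and 40 in H460, and none fell in either; the interaction was called for 29 with a larger change in H460 and for 2 with a larger change in RKO. The median log2 change was 1.45 in RKO and 2.81 in H460 (median difference -1.40, and -1.02 with library size alone), where all tested genes had a median of 0.06 and -0.03. Interaction calls covered 73.8% of these targets, against 38.5% of all tested genes. A rise was called in 20.6% of all tested genes in RKO and 24% in H460. Of the exceptions, PFKFB3, which makes the activator of phosphofructokinase, rose only in RKO, from 122 and 118 to 306 and 267 CPM, with 42.1, 38.8, 36.4 and 40.6 CPM in H460 (difference 1.33 ± 0.17, adjusted p = 9.19e-05). SLC2A1, the glucose transporter GLUT1, rose in both, by 1.80 ± 0.18 in RKO and 1.13 ± 0.18 in H460, a difference of 0.67 ± 0.25 (adjusted p = 0.0476). That call was lost without RKO normoxia replicate 1 (0.66), RKO hypoxia replicate 1 (0.58), H460 normoxia replicate 1 (0.33), H460 hypoxia replicate 1 (0.69) or H460 hypoxia replicate 2 (0.63).

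BNIP3 and EGLN3, a mitophagy receptor and an oxygen sensor, rose in H460 by 3.25 ± 0.19 and 2.45 ± 0.21 and had at most 0.766 and 0.148 CPM in any RKO library. The interaction of EGLN3 lost its call without RKO normoxia replicate 2 (-2.33), in the fit of all 12 libraries (-2.60) and with voom and quality weights (-2.58). Among 12 tested HIF subunits, coactivators and oxygen sensors, EPAS1 rose in both lines (1.36 ± 0.19 and 1.43 ± 0.18, difference -0.07 ± 0.26), and EGLN1 rose in both with a difference of -0.34 ± 0.23 (adjusted p = 0.27). ARNT, the shared partner subunit, rose further in H460 (1.70 ± 0.15) than in RKO (0.59 ± 0.15, which was 0.52 and not called with RKO fitted on its own), as did CITED2, which competes with HIF for its coactivators (2.98 ± 0.17 against 0.69 ± 0.17). ARNT2 fell in both, and further in H460. The interaction was called for 5 of the 12 (41.7%, against 38.5% of all tested genes), with HIF1A and EGLN3 as the single-line members.

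NRF2 target genes fell in H460 and were mostly not called in RKO. Of 30 tested members, 20 fell and 2 rose in H460, while 4 fell and 3 rose in RKO, and the interaction was called for 19 with the RKO change above the H460 change and for 1 below (median -0.14 in RKO, -1.02 in H460, difference 0.83). Among all tested genes 25.9% fell in H460 and 11.7% in RKO. Interaction calls covered 66.7% of this list, against 38.5% of all tested genes. AKR1B10, an aldo-keto reductase, fell in H460 from 788 and 683 to 112 and 119 CPM and had 0.878 to 1.31 CPM in RKO. SLC7A11, the cystine transporter, fell in H460 from 1074 and 1192 to 278 and 283 CPM, with 68.1, 23.6, 48.7 and 31.7 CPM in RKO. The RKO replicates of SLC7A11 were far apart, and the difference was 1.83 ± 0.48 (adjusted p = 0.00907).

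GCLM and GCLC, the subunits of the enzyme that starts glutathione synthesis, fell in H460 by 1.97 and 1.27 on the log2 scale, and GCLC fell in RKO too, by 0.61, with a difference that lost its call without RKO hypoxia replicate 2 (0.54). SRXN1 and TXNRD1, of the peroxiredoxin and thioredoxin systems, fell in H460 by 1.96 and 1.14 and changed by -0.45 ± 0.12 and -0.03 ± 0.18 in RKO. Members in opposite directions were OSGIN1, EPHX1 and HMOX1. OSGIN1, an oxidative stress response gene, had 8.59 and 8.95 CPM in RKO normoxia and 44.3 and 31.9 in hypoxia, and 96.9 and 98 against 34.5 and 24.4 in H460, so that the order of the lines in normoxia was lost in hypoxia. EPHX1, a microsomal epoxide hydrolase, rose in RKO from 14.1 and 15.5 to 29.9 and 30.2 CPM and fell in H460 from 467 and 349 to 72.5 and 78 (difference 3.46 ± 0.21, adjusted p = 4.36e-07). HMOX1, heme oxygenase 1, rose in RKO from 52.1 and 48.2 to 130 and 217 CPM and fell in H460 from 49.4 and 46.2 to 27.8 and 27.1.

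NQO1, often used as a reporter of NRF2 activity, was called in neither line: it had 78.4, 76.8, 76.6 and 79.4 CPM in RKO and 1574, 1552, 1596 and 1568 in H460, a difference of -0.01 ± 0.18. TKT, of the pentose phosphate pathway, was the member with the opposite interaction, rising in H460 (0.64 ± 0.15) and not called in RKO (-0.49 ± 0.15); with library size alone its H460 change was 0.28 and was not called. The H460 fall of the list was larger with library size alone (median -1.38, 25 members lower). Members of the AKR1C family share long stretches of sequence, so their counts are uncertain.

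**Figure D4:**
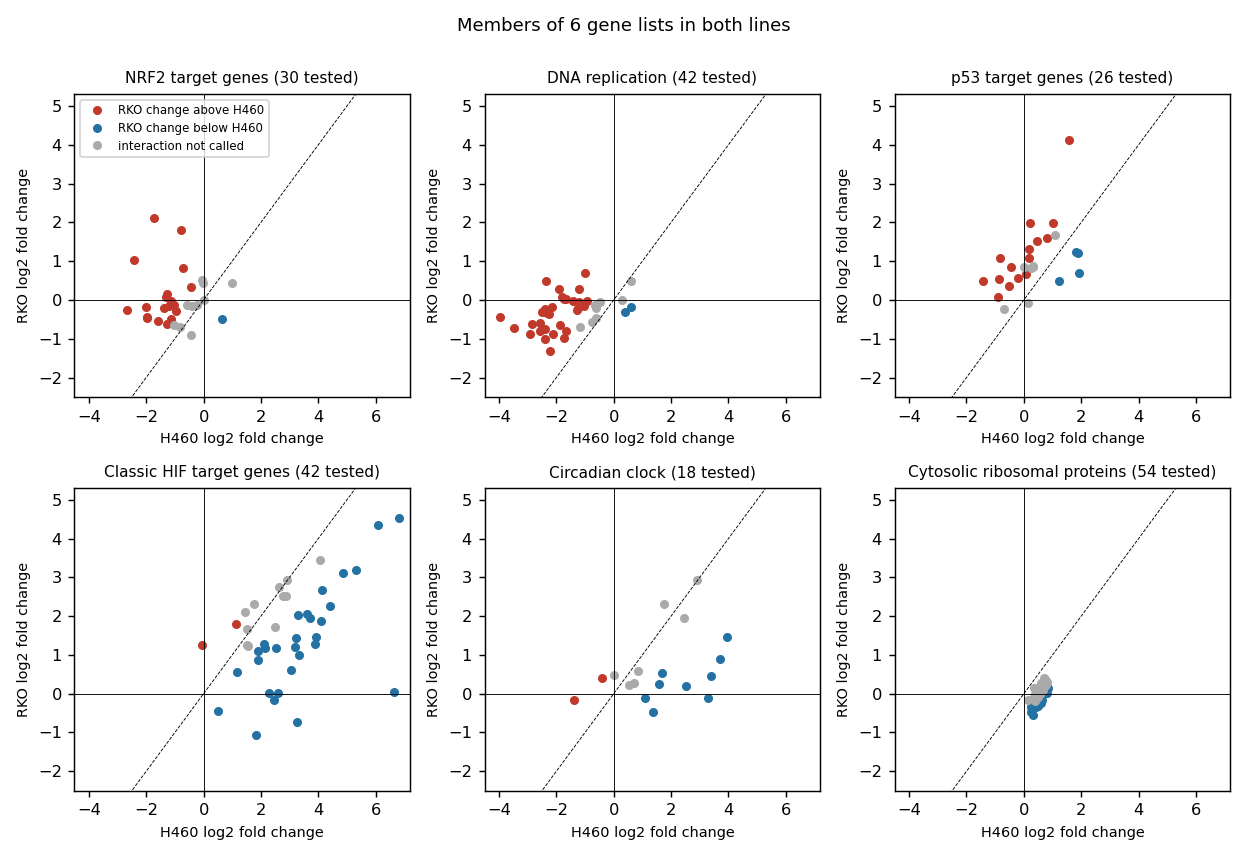
Log2 fold change in H460 (x axis) and RKO (y axis) of each tested member of 6 gene lists, coloured by the interaction call; the dashed line marks equal changes. NRF2 targets and DNA replication genes lie left of the line (19 and 31 members called above), HIF targets and clock genes right of it (29 and 9 called below), and the ribosomal proteins form a tight cloud.

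DNA replication genes fell more often in H460 than in RKO. Of 42 tested members 37 fell in H460 and 13 in RKO, and the interaction was called for 31 with the RKO change above and for 2 below (medians -0.25 in RKO and -1.70 in H460, difference 1.30). Of all tested genes 25.9% fell in H460 and 11.7% in RKO. The interaction was called for 78.6% of this list, against 38.5% of all tested genes. MCM10, an initiation factor, had 132 and 135 CPM in RKO normoxia and 92 and 105 in hypoxia (-0.44 ± 0.12, under the fold threshold), and went from 37.8 and 42.1 to 2.34 and 2.8 in H460. MCM6, a subunit of the replicative helicase, fell in both, from 200 and 187 to 117 and 116 CPM in RKO and from 147 and 151 to 13.2 and 13.5 in H460 (difference 2.74 ± 0.16, adjusted p = 3.78e-07). PCNA, the sliding clamp, went from 237 and 247 to 178 and 209 CPM in RKO (-0.32 ± 0.12) and from 193 and 187 to 32.5 and 34.4 in H460.

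GINS4 fell in H460 by 2.38 and changed by 0.50 ± 0.15 in RKO, and TK1, thymidine kinase, rose in RKO from 91.6 and 92 to 158 and 136 CPM and fell in H460 from 64 and 61.2 to 30.8 and 31.3. Not all members took part, since CDT1, a licensing factor, rose in H460 (0.59 ± 0.16) with a difference of -0.10 ± 0.23 (adjusted p = 0.765), and RFC1 and ORC1 had differences of -0.77 and -0.71 whose calls were lost with library size alone (-0.40 and -0.33) and, for RFC1, without RKO hypoxia replicate 2 (-0.57). Mitosis genes were called less often in these counts, with no test of that difference. Of 38 tested, 9 fell in H460 and 3 in RKO, against 25.9% and 11.7% of all tested genes. Their interaction was called for 8 above and 2 below, which is 26.3% of them against 38.5% of all tested genes. With library size alone 21 fell in H460 and 17 were called above and 1 below. Ribosome biogenesis factors fell together in both lines, 41 of 42 in RKO and 31 in H460, with a median of -1.29 in each. A fall was called in 11.7% of all tested genes in RKO and 25.9% in H460. The interaction was called for 8 above and 8 below (38.1%, near the 38.5% of all tested genes).

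Known p53 target genes rose more in RKO. Of 26 tested members 18 rose and none fell in RKO, while 8 rose and 5 fell in H460, and the interaction was called for 15 above and 4 below (median 0.86 in RKO and 0.21 in H460, the latter -0.15 with library size alone). Among all tested genes 20.6% rose in RKO and 24% in H460. Interaction calls covered 73.1% of this list, against 38.5% of all tested genes. TP53INP1, a stress-induced autophagy factor, had 10 and 8.58 CPM in RKO normoxia and 174 and 150 in hypoxia, and rose in H460 from 9.01 and 8.15 to 26.9 and 24.1 (difference 2.55 ± 0.20, adjusted p = 3.32e-06). POLH, a translesion polymerase, rose in RKO from 22.5 and 28.4 to 96.7 and 104 CPM and had 29.2, 21.8, 27 and 32.5 CPM in H460. GADD45A rose in RKO (1.08 ± 0.19) and fell in H460 (-0.82 ± 0.19). CDKN1A, the cell cycle inhibitor p21, went against the list, rising further in H460 (1.91 ± 0.15) than in RKO (0.69 ± 0.14), and C12orf5 (TIGAR) fell in H460 by 1.44 and changed by 0.49 ± 0.13 in RKO.

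Clock, immediate-early and MAPK feedback genes rose more in H460. Of 18 tested clock genes 14 rose in H460 and 6 in RKO, with the interaction called for 9 below and 2 above (medians 0.43 and 1.62). Of 24 AP-1 and immediate-early genes 16 rose in H460, and 11 rose and 3 fell in RKO, with 10 interaction calls below and 3 above (medians 0.28 and 1.14). FOSL1 of this list moved in opposite directions, from 239 and 301 to 102 and 124 CPM in RKO and from 27.8 and 28.2 to 48 and 48.4 in H460, although its H460 rise of 0.78 ± 0.14 was 0.42 and not called with library size alone. Of 18 MAPK feedback genes the interaction was called for 10 below and 1 above. Interaction calls covered 61.1% of clock, 54.2% of AP-1 and immediate-early and 61.1% of MAPK feedback genes, against 38.5% of all tested genes. Among all tested genes 24% rose in H460 and 20.6% in RKO. SPRY1, an inhibitor of receptor tyrosine kinase signalling, rose in H460 from 0.636 and 0.234 to 9.67 and 8.33 CPM and by 0.68 ± 0.29 in RKO, where its rise was 0.61 and not called with RKO fitted on its own (adjusted p = 0.117, edgeR), while CCND1 (cyclin D1) fell in both lines, by 0.95 in RKO and 2.08 in H460.

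Of 29 tested ATF4 targets 9 were higher and none lower in RKO, and 5 were higher and 9 lower in H460, against 20.6% of all tested genes higher in RKO and 25.9% lower in H460. The interaction was called for 55.2% of them, 11 above and 5 below, against 38.5% of all tested genes. JDP2 of this list rose in RKO from 11.1 and 5.73 to 26.1 and 17.5 CPM and fell in H460 from 27.4 and 24.5 to 13 and 14.6, whereas PPP1R15A, which ends the integrated stress response, rose in H460 from 30.3 and 38.9 to 123 and 120 CPM and by 0.40 ± 0.18 in RKO, not called. Genes of protein folding in the endoplasmic reticulum had 11 interaction calls below and 1 above of 23, which is 52.2% (4 below and 5 above with library size alone). HERPUD1 rose by 2.26 ± 0.22 in H460 and 0.87 ± 0.22 in RKO. Of 27 cytosolic and mitochondrial chaperones 18 fell in RKO and 13 in H460, against 11.7% and 25.9% of all tested genes. HSP90AB1 fell in RKO from 3602 and 3321 to 1527 and 1219 CPM and, with TMM factors, rose in H460 from 1342 and 1230 to 2031 and 1902, which was 0.25 and not called with library size alone, and HSP90AA1 fell in both lines. The difference between the lines for HSP90AA1 (0.61 ± 0.21) lost its call with RLE scaling or DESeq2 (0.57 in each), in the fit of all 12 libraries, with a fold threshold of 2, and without RKO hypoxia replicate 1 (0.53), RKO normoxia replicate 2 (0.47), H460 hypoxia replicate 1 (0.54) or H460 normoxia replicate 2, where the difference was again 0.61.

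**Figure D5:**
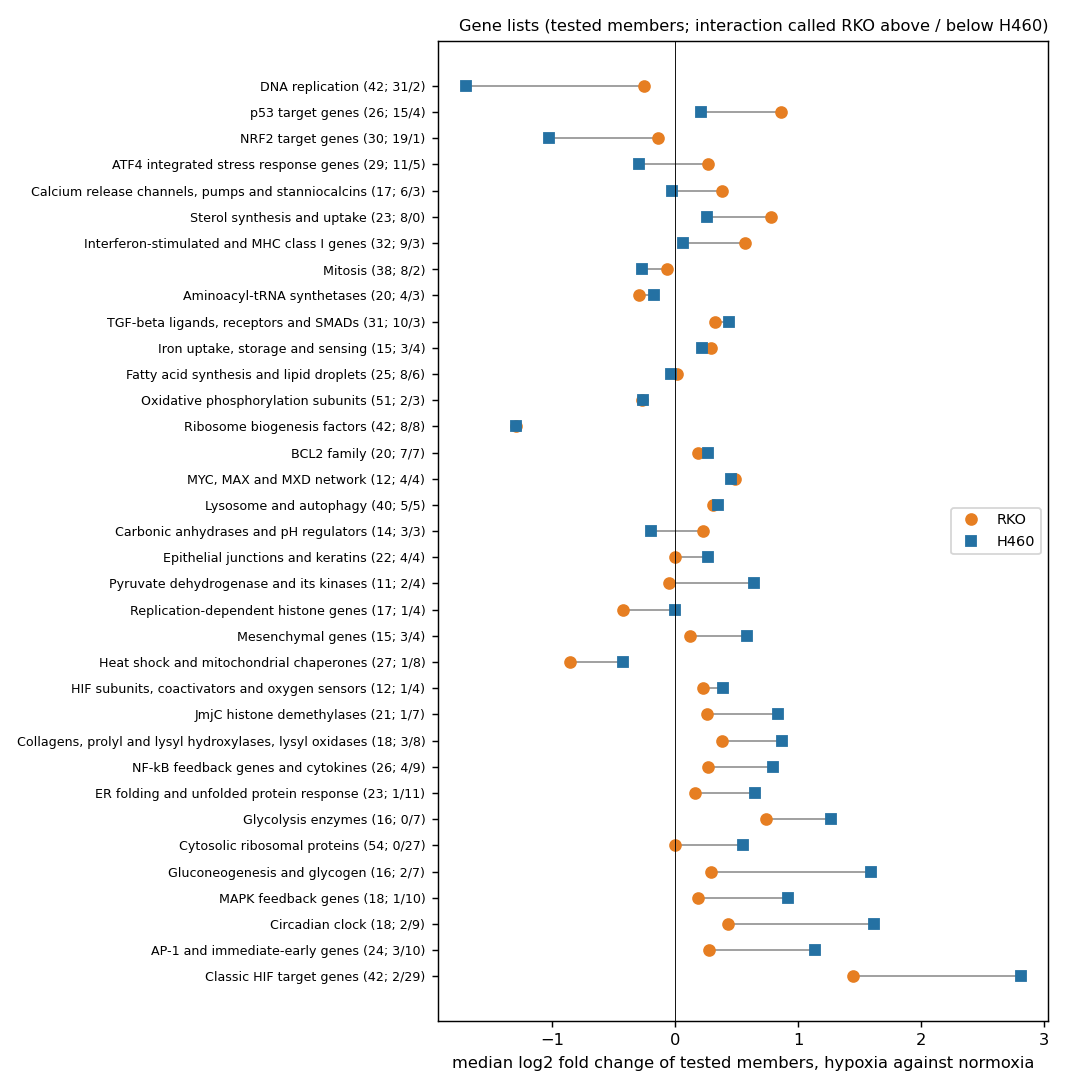
Median log2 fold change of the tested members of each gene list in RKO (orange circles) and H460 (blue squares), ordered by the median difference, with the number of tested members and the interaction calls above and below in parentheses. DNA replication, p53 and NRF2 target genes stand at the top and classic HIF targets at the bottom.

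Cytosolic ribosomal protein genes had median changes of 0.00 in RKO and 0.55 in H460, with 27 of 54 interactions called below and 21 members higher in H460, but with library size alone no member was called in either line or in the interaction (H460 median 0.19). These calls were 50% of the ribosomal protein genes, against 38.5% of all tested genes. In H460 a rise was called in 24% of all tested genes. Oxidative phosphorylation subunits had few interaction calls, 2 above and 3 below of 51 (9.8%) and medians of -0.27 and -0.26. Glycolysis enzymes rose in both lines, 9 of 16 in RKO and 13 in H460, against 20.6% and 24% of all tested genes. They had 7 interaction calls below (43.8%, against 38.5% of all tested genes). GAPDH among them, which has many processed copies, had 3470, 2848, 4363 and 3089 CPM in RKO and went from 4985 and 4562 to 22603 and 19300 in H460. ENO2 rose in both, further in H460 (5.14 ± 0.20 against 2.48 ± 0.17). Sterol synthesis and uptake genes had 8 interaction calls above and none below of 23, which is 34.8%, under the share of all tested genes. Of these members 16 were higher in RKO and 10 in H460, against 20.6% and 24% of all tested genes. The H460 median of 0.26 was -0.10 with library size alone.

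In carbohydrate metabolism beyond glycolysis, PYGL (liver glycogen phosphorylase) rose in H460 from 283 and 269 to 1851 and 1854 CPM and had 152, 135, 165 and 159 CPM in RKO. PCK2, mitochondrial phosphoenolpyruvate carboxykinase, rose in RKO from 68.2 and 52.6 to 123 and 85.5 CPM and fell in H460 from 203 and 196 to 76.1 and 75.6 (difference 2.18 ± 0.24). TFRC, the transferrin receptor, also split, rising by 0.77 ± 0.15 in RKO and falling by 0.93 in H460. In the MYC, MAX and MXD network, the MYC antagonists MXI1 and MXD1 rose further in H460 (differences -2.33 and -1.73), the partner MAX and the antagonist MNT rose in H460 only (-1.43 and -1.70), MXD3 rose in RKO only (difference 1.5), and MLXIPL, the glucose-responsive factor ChREBP, rose in RKO from 1.99 and 1.9 to 12.5 and 11.3 CPM and fell in H460 from 15.6 and 19.3 to 10.6 and 11.6. MYC itself fell in RKO (-0.81 ± 0.13) and was not called in H460 (-0.35 ± 0.13), with a difference of -0.45 ± 0.18 that was not called. With library size alone MYC was called lower in H460 too (-0.72).

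Within ribosome biogenesis the exceptions were NOB1 and PPAN. NOB1, a nuclease that matures 18S rRNA, fell in RKO from 111 and 104 to 70.7 and 63 CPM and rose in H460 from 63.7 and 59 to 142 and 123 (difference -1.79 ± 0.17, adjusted p = 1.21e-05). PPAN fell in RKO and rose in H460 (0.68 ± 0.21), but its H460 rise was not called with library size alone. NOP56, a core protein of the snoRNA complexes, and POLR1A, the largest subunit of RNA polymerase I, fell in both lines and further in H460, by 1.53 and 1.07 in RKO and by 2.77 and 2.13 in H460.

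Of 18 tested collagens, prolyl and lysyl hydroxylases and lysyl oxidases, 6 rose in RKO and 10 in H460, against 20.6% and 24% of all tested genes. There were 3 interaction calls above and 8 below. Interaction calls covered 61.1% of this list, against 38.5% of all tested genes. PLOD2, a lysyl hydroxylase of collagen, rose in H460 from 47.5 and 35.7 to 376 and 314 CPM and stayed between 1.05 and 1.46 CPM in RKO (difference -3.40 ± 0.29, adjusted p = 4.47e-06). COL1A1, a fibrillar collagen chain, rose in RKO from 0.34 and 0.445 to 1.71 and 1.98 CPM and was not called in H460 (0.52 ± 0.22). Its difference of 1.70 lost its call in the fit of all 12 libraries and on log2(RPKM + 1), where it was 0.23. Of the YAP-responsive matricellular genes, CTGF rose in RKO from 20.9 and 17.6 to 47.9 and 40.4 CPM and fell in H460 from 375 and 443 to 285 and 208, and CYR61 rose in RKO (0.99 ± 0.19) and was not called in H460 (-0.34 ± 0.19), where with library size alone it was called lower (-0.70). The difference for CYR61 (1.33) lost its call in the fit of all 12 libraries. FN1, fibronectin, rose in H460 alone, with 6297 and 5204 CPM in H460 normoxia, 20633 and 17970 in hypoxia and no more than 13.2 in RKO.

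Calcium, carbonic anhydrase and pyruvate dehydrogenase genes held further single-line and opposite members. STC1, stanniocalcin 1, rose in H460 from 18.3 and 11.8 to 336 and 330 CPM and had at most 0.902 CPM in RKO. ORAI1, the store-operated calcium channel, fell in H460 from 18.9 and 16.3 to 7.66 and 7.7 CPM and overlapped between conditions in RKO (0.10 ± 0.16). ATP2B1, a plasma membrane calcium pump, rose in H460 only (0.81 ± 0.12). With library size alone this rise was 0.45 and was not called. CA2, a cytosolic carbonic anhydrase, rose in RKO from 27.9 and 21.9 to 52.7 and 48.8 CPM and fell in H460 from 12.9 and 11.4 to 7.12 and 8.29. PDK3, which inhibits pyruvate dehydrogenase, rose in both lines and further in H460 (3.01 ± 0.16 against 1.36 ± 0.15). PDP2, a phosphatase that reactivates that enzyme, rose in H460 alone, from 53.3 and 49.8 to 125 and 119 CPM.

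Histone demethylases of the JmjC family, which need oxygen for catalysis, had 7 interaction calls below and 1 above of 21. That is 38.1% of them, near the 38.5% of all tested genes. Their median difference was -0.35, and 0.03 with library size alone. JMJD6 rose in H460 from 30.5 and 22.8 to 133 and 126 CPM and lay between 50.1 and 63.8 in RKO. KDM5B rose in both lines and further in H460 (2.50 ± 0.17 against 0.77 ± 0.16), and KDM4A rose in RKO only (0.65 ± 0.12, against -0.13 ± 0.13), a rise that was 0.58 and not called with RKO fitted on its own. In sterol synthesis, EBP, an enzyme of the late steps to cholesterol, fell in H460 by 1.38 and was not called in RKO (0.33 ± 0.18). ARNTL2, a paralog of the clock activator BMAL1, fell in H460 from 9.9 and 10.6 to 4.81 and 3.18 CPM and was not called in RKO. FOSL2, another AP-1 subunit, rose in both and further in RKO, from 6.91 and 5.83 to 47.1 and 29.8 CPM, with a difference of 1.01 ± 0.26 (adjusted p = 0.00866).

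Cell death regulators of the BCL2 family were called in both directions, 7 above and 7 below of 20 (70%, against 38.5% of all tested genes). BMF, a pro-apoptotic member, rose in RKO from 1.18 and 0.618 to 11.1 and 8.86 CPM and had 1.77, 0.935, 2.18 and 1.49 CPM in H460 (difference 3.03 ± 0.52, adjusted p = 0.000652). MCL1, a pro-survival member, rose in H460 from 690 and 774 to 2885 and 2572 CPM and had 407, 398, 423 and 351 CPM in RKO (difference -1.95 ± 0.21, adjusted p = 2.21e-05). HRK, another pro-apoptotic member, was at 0.247 and 0.497 CPM in H460 normoxia and had 0 reads in H460 hypoxia. Its mean H460 normoxia level lay 3.25-fold above the floor, and its RKO values overlapped between conditions.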

How the data were processed

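Poly(A)+ RNA of RKO and H460 cells in normoxia or hypoxia was sequenced single-end and strand-specifically, with 2 replicates per group. The deposited table holds read counts per gene, which the authors made with TopHat2 2.0.13, Bowtie2 2.2.3.0, SAMtools 1.3.1, Picard 1.129 and HTSeq 0.6.1 on GRCh37 (hg19), counting reads on the reverse strand. A deposited table of RPKM values, which the authors scaled by gene length and library size, was used in alternatives only, on log2(RPKM + 0.1) and log2(RPKM + 1). Gene positions and lengths are those of the deposited tables.

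Counts of the 8 libraries were fitted together with edgeR 4.0.16 (quasi-likelihood F test, two-sided; R 4.3.3) with 1 mean per group, TMM factors and genes over 0.5 CPM in at least 2 libraries, which kept 14782 of 25369 genes. Contrasts were hypoxia against normoxia in each line and their difference. A call needed a Benjamini-Hochberg adjusted p under 0.1 over all tested genes and a change over 1.5-fold. CPM values are TMM-scaled. Values after ± are approximate SEs from the joint fit: the absolute log2 change divided by the square root of its F statistic. Single-line genes were called in that line and in the interaction, opposite genes in both lines. Where every library of a group had 0 reads, the mean of the other group was set against a floor of 3 reads per library. Such folds and floors cover counting error of the empty group only. They do not cover counting error of the other group or the spread of replicates. The gene lists and the classes were chosen with earlier results of these data known. The genes named were the 6 (opposite classes) or 5 (single-line classes) with the largest differences among those with at least 100 reads on average and no overlap of normoxia and hypoxia in a called line, and, in each list, the 2 top and 2 bottom members by called difference; all HIF subunits, NRF2 targets and MYC network genes could be named. MCM6, PCNA, TK1, CDT1, POLH and GADD45A were named in addition, outside these rules. Alternatives used DESeq2 1.42.0, limma 3.58.1 and other filters, scalings and thresholds. Libraries held 27350424 to 39076378 counted reads. Promoter sequences came from the RefSeq table for GRCh38.p14, matched by symbol. No coordinates were converted between builds, and the RefSeq start sites were not checked against the starts of the counted genes. Some genes are not reported here.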

Additional observations from a re-analysis of the deposited data

Results flagged for a closer look

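The responses of the lines were compared by a test of the difference itself, the interaction of line and oxygen (edgeR quasi-likelihood test with Benjamini-Hochberg adjustment), and every result below is listed because that test called it: 3350 genes with the RKO change above the H460 change and 2343 with it below. The values are log2 differences, RKO change minus H460 change, and no explanation is weighed. Genes with a mean level at or under the floor of 3 reads per library in one line, such as BEST3, LPAR6, SETBP1, TBC1D9, VASH1, ADAMTS1, CES1, VEPH1 and HGF, have fitted differences that depend on the prior count. The same holds for PTGS2, SLC9A3, GYG2 and LOC388282, and for TMEM59L, CABP4 and HRK, which had 0 reads in every library of one group. The fitted differences of TMEM59L, CABP4 and HRK are listed below because the test called them, and are not measured folds. The size to read for each is the mean of the other group against that floor. It lay 6.66-fold above the floor in RKO hypoxia for TMEM59L and 1.36-fold in RKO hypoxia for CABP4. For HRK it lay 3.25-fold above the floor in H460 normoxia. With 2 samples per group, no group was large enough to look for a library that stands apart.

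Among genes higher in RKO and lower in H460, BEST3 differed by 6.24, MGAT5B by 5.53, RHBDL3 by 5.37, TMEM37 by 5.20, TRPM2 by 4.89, AQP3 by 4.40, ITPR1 by 4.32, MROH6 by 4.26 and LAT2 by 3.98. OSGIN1 differed by 3.85, STRIP2 by 3.84, EPHX1 by 3.46, JDP2 by 2.29, MLXIPL by 3.27, PCK2 by 2.18, CA2 by 1.68, CTGF by 1.93 and HMOX1 by 2.59. TFRC differed by 1.70.

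Among genes lower in RKO and higher in H460, LPAR6 differed by -4.64, FAM13A by -3.65, SLFN11 by -3.32, FAM127A by -2.86, PPP1R3C by -2.70, MT1E by -2.67, HSPA8 by -2.65, PRKAR1B by -2.63 and SOCS2 by -2.60. HOMER1 differed by -2.52, RASA3 by -2.41, NOB1 by -1.79, PPAN by -1.68, FOSL1 by -2.04 and HSP90AB1 by -1.95.

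Among genes higher in RKO only, TMEM59L differed by 6.68, CABP4 by 5.10, GJA1 by 4.62, SLC9A3 by 4.50, GYG2 by 4.44, LINC01021 by 4.23, BTBD19 by 3.19, MAP1A by 2.88 and EFR3B by 2.66. SESN3 differed by 2.48, PFKFB3 by 1.33, COL1A1 by 1.70, MXD3 by 1.5, CYR61 by 1.33, KDM4A by 0.78 and BMF by 3.03.

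Among genes lower in RKO only, SETBP1 differed by -4.33, TBC1D9 by -4.10, VASH1 by -3.90, ADAMTS1 by -3.88, CES1 by -3.63, BAG1 by -1.63, IER2 by -1.61, DLEU1 by -1.56 and NPM1 by -1.56. HIF1A differed by -1.55.

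Among genes higher in H460 only, PPFIA4 differed by -6.60, LINC00887 by -6.39, PTGS2 by -6.36, LOX by -5.38, MAF by -5.37, FOSB by -4.06, AKAP12 by -4.00, NR1D1 by -3.40 and HIST1H1C by -2.96. DBP differed by -2.93, EGLN3 by -2.60, BNIP3 by -3.99, GAPDH by -1.90, PLOD2 by -3.40, TKT by -1.13, PPP1R15A by -1.41, RFC1 by -0.77 and PYGL by -2.57. PDP2 differed by -1.61, STC1 by -3.73, ATP2B1 by -1.19, FN1 by -2.13, JMJD6 by -2.27, MCL1 by -1.95, MAX by -1.43 and MNT by -1.70.

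Among genes lower in H460 only, RPS6KL1 differed by 6.40, LOC388282 by 5.69, VEPH1 by 5.14, HGF by 4.63, SLC43A2 by 4.36, MFAP3L by 4.19, E2F1 by 3.95, E2F2 by 3.70 and CCNE2 by 3.68. MCM10 differed by 3.51, GINS4 by 2.88, C12orf5 by 1.92, EBP by 1.71, ORAI1 by 1.29, ARNTL2 by 1.20, HRK by 6.91, GCLM by 1.5 and TXNRD1 by 1.11. SRXN1 differed by 1.51, SLC7A11 by 1.83 and AKR1B10 by 2.41.

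Among genes higher in both lines to an unequal extent, CITED2 differed by -2.28, SLC2A1 by 0.67, ENO2 by -2.66, HERPUD1 by -1.39, MXI1 by -2.33, MXD1 by -1.73, TP53INP1 by 2.55, CDKN1A by -1.22 and PDK3 by -1.65. FOSL2 differed by 1.01, SPRY1 by -3.72, KDM5B by -1.74 and ARNT by -1.10.

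Among genes lower in both lines to an unequal extent, ARNT2 differed by 1.37, NOP56 by 1.24, POLR1A by 1.06, CCND1 by 1.13, HSP90AA1 by 0.61 and GCLC by 0.66.

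With a called interaction and neither line past its own threshold, ORC1 differed by -0.71.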

How the results depend on the processing

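With library size alone the interaction was called above for 5308 and below for 1054 genes, H460 had 2074 higher and 5827 lower, the opposite classes had 651 (RKO higher) and 32 (RKO lower) genes, 120 genes fell in RKO only, and 541 rose and 2633 fell in H460 only. RPKM values carry the same scaling. With limma on log2(RPKM + 0.1) the interaction counts were 5830 and 1291, 2029 genes rose in H460, 22 were opposite with RKO lower, 127 fell in RKO only, and 780 rose and 3046 fell in H460 only. With log2(RPKM + 1) they were 1058 below, 1971 higher in RKO, 1599 higher in H460, 226 and 16 opposite, 95 lower in RKO only, and 674 higher and 2437 lower in H460 only, and without a filter 1052, 1948, 1628, 213 and 17, 93, 675 and 2409 in the same order. A fold over 2 gave 1062 below, 1745 higher and 579 lower in RKO, 2006 higher and 2414 lower in H460, 172 and 12 opposite, 67 lower in RKO only and 662 higher in H460 only, and no minimum fold gave 3114 lower in RKO and 705 and 382 opposite.

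Signs turned on log2 RPKM for genes with a mean level at or under the floor of 3 reads in one line: TBC1D9 (0.01 with 0.1 added and 0.10 with 1 added), VASH1 (0.68 and 0.46), ADAMTS1 (0.21 and 0.32), CES1 (0.29 and 0.57) and, with 1 added, HGF (-0.10); the values with 1 added were the same without a filter. The cause was not tested. Leaving out 1 library at a time gave 2838 to 3487 interaction calls above and 1995 to 2619 below, 2694 to 3147 higher and 1501 to 2001 lower in RKO, 3221 to 3564 higher and 3396 to 3873 lower in H460, 325 to 440 and 53 to 75 opposite genes, 732 to 828 higher and 244 to 350 lower in RKO only, and 1032 to 1489 higher and 1261 to 1633 lower in H460 only. Replicate numbers were not shown to pair the samples, since deviations of same-numbered libraries correlated at 0.25 in RKO and 0.09 in H460. With the replicate number as a block within each line the calls were 3477 and 2405, and with a block shared by the lines 3425 and 2384. DESeq2 gave 3030 and 2454. After the data were seen, 2 alternatives were added: requiring the filter in the called line left 327 and 51 opposite genes, and testing only genes that pass the filter in both lines gave 339 and 49.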

Other observations

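A549, a lung carcinoma line grown in DMEM like RKO, was not used to form the classes. In a fit of all 12 libraries, 892 (6.03%) of the 14782 tested genes rose and 390 (2.64%) fell in A549 (median log2 change 0.01), and most genes of each class were not called in A549, as were most genes tested. Of the 404 genes that rose in RKO and fell in H460, 21 rose and 19 fell in A549 (median log2 change -0.01), and of the 64 reverse genes 9 rose and 2 fell (0.07). Of 811 genes higher in RKO only, 64 rose and 13 fell in A549 (0.17), and of 288 lower in RKO only, 7 rose and 9 fell (-0.13). Of 1284 genes higher in H460 only, 143 rose and 7 fell in A549 (0.17), and of 1477 lower in H460 only, 26 rose and 89 fell (-0.21). These are counts with no test, and the classes were not compared with each other in A549.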
